A study of Homo sapiens with 44 samples.

Results

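A set of 8 human genes that recruit lymphocytes and monocytes was followed in 2 cell lines with lowered IRF2BP2, a transcriptional cofactor. They are the chemokine genes CXCL10, CXCL11, CCL2, CCL5, CCL20 and CX3CL1 and the adhesion molecule genes ICAM1 and VCAM1, taken by symbol for their role in leukocyte recruitment, with the neutrophil-attracting CXC chemokines left out. All 8 were present among the 25689 gene symbols of each RNA table. In A549 cells, a lung adenocarcinoma line, RNA was sequenced in 8 groups of 3 samples. Cells had received a pool of small interfering RNAs against IRF2BP2 (siIRF2BP2) or a non-targeting pool (siNON), each at 20 nM for 72 h. For the last 6 h they were given 100 nM dexamethasone (dex, a synthetic glucocorticoid) together with 10 ng/ml tumour necrosis factor (TNF), TNF alone, dex alone, or the ethanol vehicle. In HEK293-GR cells, an isogenic HEK293 line engineered to express the glucocorticoid receptor constantly, RNA was sequenced after siIRF2BP2 with dex, siNON with dex, siIRF2BP2 with vehicle and siNON with vehicle. The labels list 4 HEK293-GR samples per group, of which 3 per group had a column and 4 samples in all were not analysed here. All groups were kept in medium depleted of steroids. IRF2BP2 chromatin immunoprecipitation (ChIP) in HEK293-GR cells after 1 h of dex or vehicle supplied 2 peak lists.

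Chemokines are small proteins, secreted or displayed on the cell surface, that direct leukocytes through G protein-coupled receptors, and adhesion molecules on endothelial and epithelial cells hold those leukocytes through integrins. TNF is known to switch on many of these genes through the transcription factor NF-kB, and some also through interferon-linked factors. Glucocorticoids, acting through their receptor, are used as drugs because they hold down many genes of this kind.

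The promoters show which of the genes carry NF-kB type sequences near their start, so they are printed before the values. RefSeq promoters (build GRCh38.p14) were matched for 5 of the 8 genes, and CCL2, CCL5 and CX3CL1 were not matched. Each line gives the 250 bases before the annotated start, 5′ to 3′ on the gene's strand, with matches to the NF-kB consensus (either strand) or to GGAAATTCC in capitals.
CXCL10 promoter, chr4:76023498-76023747, minus strand: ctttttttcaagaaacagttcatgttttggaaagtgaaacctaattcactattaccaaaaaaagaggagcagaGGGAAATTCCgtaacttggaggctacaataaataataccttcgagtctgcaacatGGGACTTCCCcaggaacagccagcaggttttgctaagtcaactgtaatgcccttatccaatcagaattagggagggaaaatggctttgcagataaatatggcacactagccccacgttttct
CXCL11 promoter, chr4:76036071-76036320, minus strand: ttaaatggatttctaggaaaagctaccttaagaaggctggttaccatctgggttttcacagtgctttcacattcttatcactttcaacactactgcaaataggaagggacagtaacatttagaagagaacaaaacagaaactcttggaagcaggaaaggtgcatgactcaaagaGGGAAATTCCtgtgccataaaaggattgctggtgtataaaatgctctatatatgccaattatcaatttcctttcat
CCL20 promoter, chr2:227813592-227813841, plus strand: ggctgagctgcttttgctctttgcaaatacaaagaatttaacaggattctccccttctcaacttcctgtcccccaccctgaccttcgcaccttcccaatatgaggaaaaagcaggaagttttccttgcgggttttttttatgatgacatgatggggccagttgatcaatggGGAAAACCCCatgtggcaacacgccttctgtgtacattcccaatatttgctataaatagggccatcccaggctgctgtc
ICAM1 promoter, chr19:10270870-10271119, plus strand: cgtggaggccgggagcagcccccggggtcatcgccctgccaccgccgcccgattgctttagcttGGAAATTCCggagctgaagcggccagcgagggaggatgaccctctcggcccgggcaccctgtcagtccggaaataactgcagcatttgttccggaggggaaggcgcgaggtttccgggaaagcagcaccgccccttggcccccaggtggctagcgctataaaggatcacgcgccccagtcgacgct
VCAM1 promoter, chr1:100719492-100719741, plus strand: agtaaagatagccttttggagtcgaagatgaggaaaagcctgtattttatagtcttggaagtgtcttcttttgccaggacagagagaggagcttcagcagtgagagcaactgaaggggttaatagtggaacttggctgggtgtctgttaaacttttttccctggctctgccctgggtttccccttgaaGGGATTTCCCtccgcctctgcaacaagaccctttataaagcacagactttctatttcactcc
The NF-kB consensus was matched at positions -177 to -168 and -122 to -113 before the start of CXCL10, at -76 to -67 in CXCL11, at -79 to -70 on the opposite strand in CCL20, and at -62 to -53 in VCAM1, where the same bases match the consensus on both strands. ICAM1 held no full consensus match, but GGAAATTCC lay at -186 to -178. The same 9 letters lay inside the consensus match of CXCL11 and inside the upstream match of CXCL10. Of 27305 promoters of the same length, 1 per gene symbol, 5.05% held a consensus match and 0.428% held GGAAATTCC on either strand, against 4 and 3 of these 5. A pattern known from interferon-linked factors (GAAA, any 2 bases, GAAA) lay at -221 to -212 in CXCL10 and at -15 to -6 on the opposite strand in VCAM1, and was found in 3.07% of promoters. TATAAA was found in 4 of the 5, all but CXCL10, and in 11.1% of promoters. The palindromic glucocorticoid receptor pattern (GNACA, any 3 bases, TGTNC) was in none of the 5 and in 0.33% of promoters. A letter match is a description and not a measured binding site.

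The A549 table holds 1 pooled column per group, with 35.8 to 56.9 M (mega) tags, and replicate error is therefore unknown in A549; the calls below are those of the authors' deposited table, at a false discovery rate (FDR) under 0.05. Its levels are FPKM over the genomic span of a transcript, introns included, and are given with the pooled reads behind them, recovered from the FPKM, whose 95% intervals cover counting error only. In the HEK293-GR table every library has its own column, with 18.2 to 28.5 M tags. In bulk RNA, fewer cells of a type and less RNA per cell cannot be told apart. Replicates are called biological in the series text, without word of separate cultures, so the HEK293-GR p-values measure the spread between these libraries, which may be technical in part. The epithelial markers KRT8, KRT18, ALDH1A1 and AKR1B10 were high in A549, where NAPSA and SFTPB were low. KRT8 and KRT18 were also high in HEK293-GR cells, at means of 65.9 and 57.8 FPKM. In HEK293-GR cells 6 of 8 HEK293 markers reached 1 FPKM, but so did 6 of 9 lung epithelial and 2 of 5 fibroblast markers. In A549, 3 of 8 HEK293 markers reached 1 FPKM computed over exon length, so neither list was restricted to its line. Of the other cell types, CD3E of T cells had 0 reads in every A549 column and the endothelial marker VWF had at most 10, while 3 of 6 blood markers (CD14, LYZ and ITGB2) and COL1A1 of fibroblasts exceeded 1 FPKM, computed over exon length, in A549.

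IRF2BP2 was lower with siIRF2BP2 in all 4 treatments of A549, but most of it remained. Pooled FPKM were 17.9 with siIRF2BP2 against 25.4 with siNON under dex plus TNF, and 21.4 against 26.3 under TNF. They were 22.9 against 31.3 under dex, and 26.3 against 29.7 under vehicle. In that order the log2 fold changes in the authors' deposited table were -0.62, -0.40, -0.66 and -0.31, all past the FDR threshold. In HEK293-GR cells IRF2BP2 stood at 10.4 ± 0.752 FPKM with siIRF2BP2 against 20.0 ± 0.605 with siNON under dex, and at 12.7 ± 0.96 against 22.9 ± 2.41 under vehicle (mean ± SD, n = 3 each).

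TNF was given to A549 cells to ask how each gene answers an inflammatory signal. All 8 genes rose with TNF, with either small interfering RNA. Of 16723 genes with at least 10 pooled reads in at least 1 column, the authors' deposited table called 37.7% with siIRF2BP2 (18.8% higher, 18.8% lower) and 19.6% with siNON (10.2% higher, 9.43% lower). CXCL10, CXCL11 and VCAM1 reached 10 reads only in columns with TNF, so their count there adds nothing, while the other 5 had at least 10 reads in both vehicle columns.

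**Figure D1:**
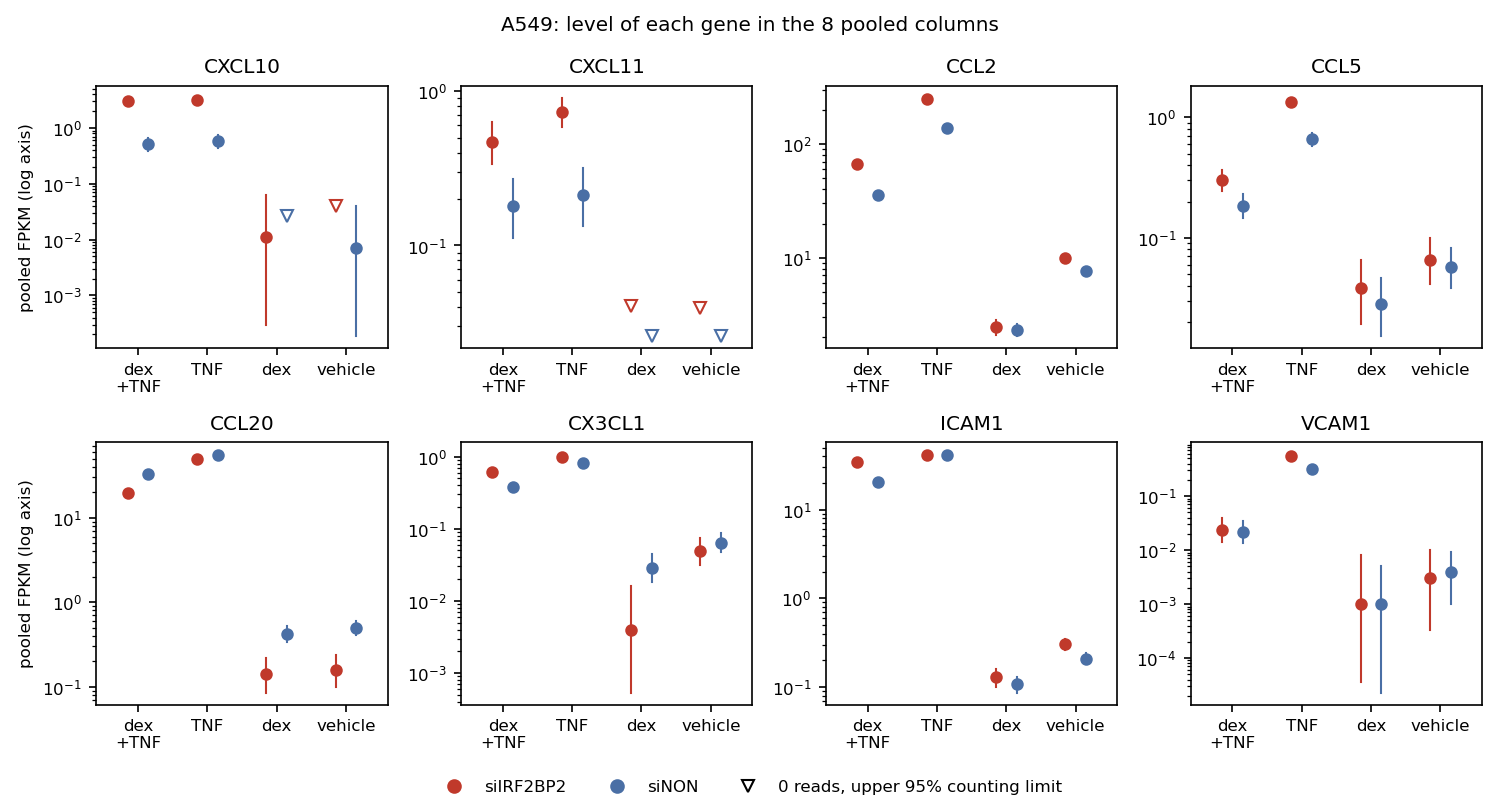
Pooled FPKM of each gene in A549 cells on a log axis, siIRF2BP2 (red) left of siNON (blue), for dex plus TNF, TNF, dex and vehicle; bars are 95% counting intervals and open triangles mark the upper limit where no read was seen. CCL2 under TNF stands at 250.3 FPKM with siIRF2BP2 and 139.5 FPKM with siNON, while CCL20 under dex plus TNF stands at 19.8 FPKM with siIRF2BP2 and 32.9 FPKM with siNON.

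The ligands of CXCR3, the receptor of activated T cells, were almost silent without TNF. CXCL10 had 357 reads under TNF with siIRF2BP2 against 0 under vehicle, and 60 reads under TNF with siNON against 1 under vehicle. The siIRF2BP2 level was at least 94.2-fold higher under TNF, with the vehicle column set at 3 reads, and the siNON level 78.8-fold higher (counting interval 13.6 to 3165). CXCL11, which binds CXCR3 and the scavenging receptor ACKR3, had 87 reads under TNF with siIRF2BP2 and 23 with siNON, against 0 in both vehicle columns. It was at least 23.0-fold higher with siIRF2BP2 and at least 10.1-fold higher with siNON, on the same floor per column. Both genes lie next to each other on chromosome 4 (hg19, CXCL10 from 76942269 to 76944689, CXCL11 from 76954840 to 76957350, both on the minus strand).

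CCL2, which draws monocytes through CCR2, had the highest level of the 8 under vehicle and under TNF when reads were scaled to exon length. It stood at 250.3 FPKM under TNF against 9.93 under vehicle with siIRF2BP2, and at 139.5 against 7.70 with siNON. That is 25.2-fold (counting interval 23.4 to 27.2) with siIRF2BP2 and 18.1-fold (16.9 to 19.5) with siNON. CCL5, which attracts T cells and monocytes, stood at 1.33 FPKM under TNF against 0.066 under vehicle with siIRF2BP2 (20.2-fold), and at 0.661 against 0.057 with siNON (11.5-fold). CCL20, the ligand of CCR6 on dendritic and Th17 cells, stood at 49.2 FPKM under TNF against 0.158 under vehicle with siIRF2BP2, and at 55.4 against 0.496 with siNON. The folds of CCL20 were 312 (206 to 498) with siIRF2BP2 and 112 (92.1 to 137) with siNON, and the siNON vehicle level was 3.14 times the siIRF2BP2 one. CX3CL1, a chemokine made as a transmembrane protein that both tethers and attracts CX3CR1-bearing cells, stood at 0.995 FPKM under TNF against 0.049 under vehicle with siIRF2BP2 (20.3-fold), and at 0.807 against 0.064 with siNON (12.5-fold).

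Both adhesion molecules rose from low levels by large factors. ICAM1, the ligand of the integrins LFA-1 and Mac-1, stood at 41.8 FPKM under TNF against 0.303 under vehicle with siIRF2BP2, and at 40.9 against 0.208 with siNON. Its folds were 138 (119 to 161) with siIRF2BP2 and 196 (170 to 228) with siNON. VCAM1, the ligand of the integrin VLA-4, had 502 reads under TNF against 2 under vehicle with siIRF2BP2 and 264 against 4 with siNON, so its folds of 199 (54.7 to 1645) and 86.7 (33.5 to 321) rest on very few vehicle reads. Scaled to exon length, the TNF levels with siIRF2BP2 fell into 2 tiers, with CCL2 at 649, CCL20 at 220 and ICAM1 at 204 FPKM computed over exon length. CCL5 stood at 9.68, CXCL10 at 6.23, CX3CL1 at 3.82, VCAM1 at 3.53 and CXCL11 at 1.15 on that scale, and intron reads are included in each.

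**Figure D2:**
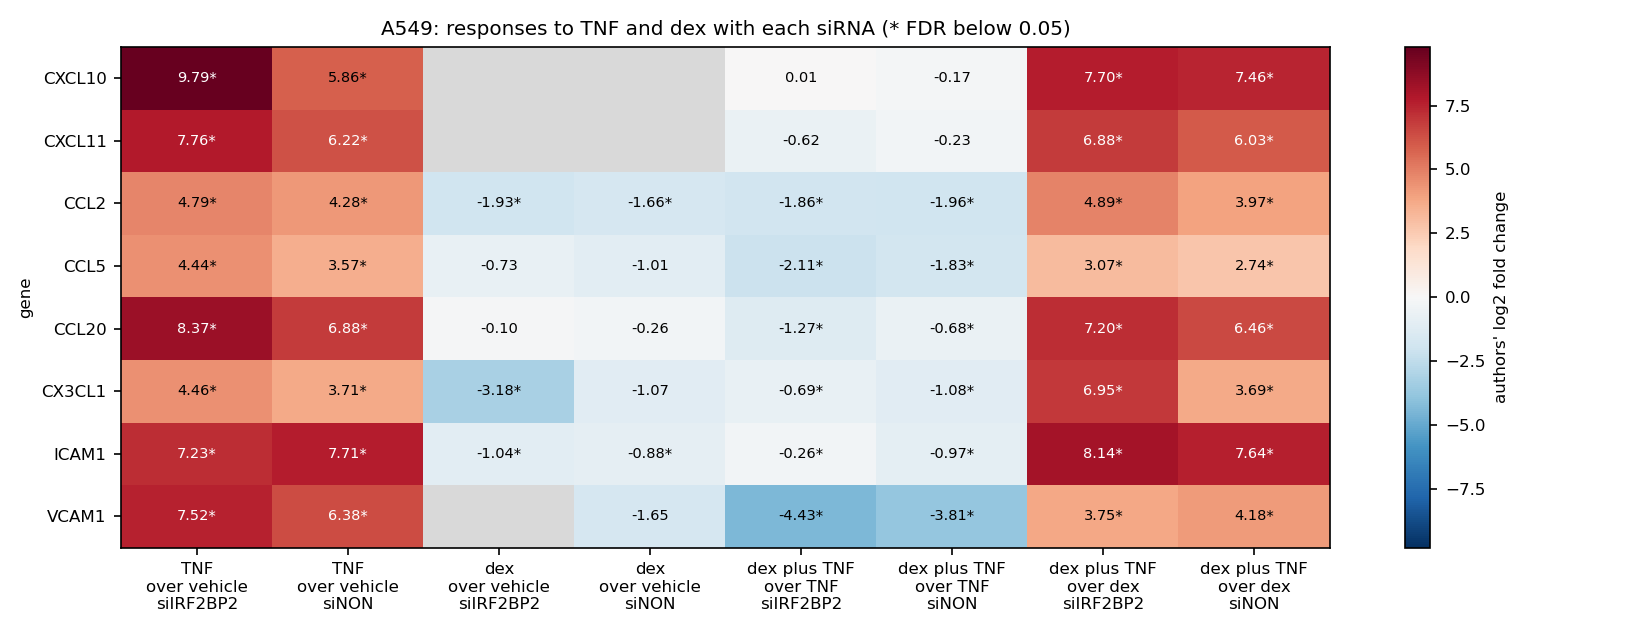
The authors' log2 fold changes of the 8 genes in A549 cells for 4 responses, each with siIRF2BP2 left of siNON. An asterisk marks an FDR below 0.05 and grey marks pairs in which both columns had at most 3 reads. TNF columns are positive for all 8 genes, and dex added to TNF is lowest for VCAM1 at -4.43 with siIRF2BP2 and -3.81 with siNON.

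The log2 TNF response in the authors' deposited table was the larger one with siIRF2BP2 for 7 of the 8 genes. The values were 9.79 with siIRF2BP2 against 5.86 with siNON for CXCL10, 7.76 against 6.22 for CXCL11 and 8.37 against 6.88 for CCL20. They were 7.52 against 6.38 for VCAM1, 4.44 against 3.57 for CCL5, 4.46 against 3.71 for CX3CL1 and 4.79 against 4.28 for CCL2. ICAM1 was the exception, at 7.23 against 7.71. On the log2 ratio of pooled FPKM plus 0.1 the same 7 genes gave a larger value with siIRF2BP2. The difference of the responses was not tested, since the columns are pooled, and for CXCL10, CXCL11 and VCAM1 it depends on vehicle columns of 0 to 4 reads. For CCL20 the TNF level itself was lower with siIRF2BP2 (49.2 against 55.4 FPKM), and the vehicle level was lower too (0.158 against 0.496 FPKM). The share of all genes with a larger response with siIRF2BP2 was not computed, so 7 of 8 has no background. Over all genes, 37.7% were called with TNF with siIRF2BP2 and 19.6% with siNON.

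Dex alone was given to ask how far the glucocorticoid lowers the resting level. CCL2, CX3CL1 and ICAM1 fell with siIRF2BP2, where 24.1% of all genes were called, 13.4% as higher and 10.7% as lower. CCL2 and ICAM1 fell with siNON, where 10.7% were called, 6.3% as higher and 4.38% as lower. CCL2 stood at 2.44 FPKM under dex against 9.93 under vehicle with siIRF2BP2, and at 2.31 against 7.70 with siNON, log2 fold changes of -1.93 and -1.66 in the authors' deposited table. ICAM1 stood at 0.129 FPKM under dex against 0.303 under vehicle with siIRF2BP2, and at 0.107 against 0.208 with siNON (-1.04 and -0.88 in the authors' deposited table). CX3CL1 had 2 reads under dex against 23 under vehicle with siIRF2BP2, and 21 against 46 with siNON (-3.18, and -1.07 with an FDR of 0.0617, in the authors' deposited table). The resting level of CCL20 did not pass the threshold with either small interfering RNA, at 0.142 FPKM under dex against 0.158 under vehicle with siIRF2BP2 and 0.421 against 0.496 with siNON. CCL5 did not pass with either, on few reads. It had 12 reads under dex against 22 under vehicle with siIRF2BP2, and 14 against 29 with siNON (-0.73 and -1.01 in the authors' deposited table).

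Dex was added to TNF to ask how far it holds down the induced level. CCL2, CCL5, CCL20, CX3CL1, ICAM1 and VCAM1 fell with each small interfering RNA, 6 of 8 genes, where 11.3% of all genes fell with siIRF2BP2 (13.3% rose, 24.6% called in all) and 7.41% with siNON (9.37% rose, 16.8% called in all). VCAM1 is among the 6 but reached 10 reads only in columns with TNF. CXCL10 and CXCL11 did not pass in either, and their difference from the other 6 was not tested. CXCL10 stood at 3.02 FPKM under dex plus TNF against 3.11 under TNF with siIRF2BP2, and at 0.507 against 0.573 with siNON, and the siIRF2BP2 ratio of 0.971 had a counting interval of 0.825 to 1.14. The authors' deposited log2 fold change of CXCL10 with siIRF2BP2 was 0.01, of the opposite sign to the pooled ratio. CXCL11 stood at 0.467 FPKM against 0.732 with siIRF2BP2 and at 0.179 against 0.212 with siNON, a log2 fold change of -0.62 (FDR 0.144) and of -0.23 (FDR 1) in the authors' deposited table. The pooled CXCL11 ratio with siIRF2BP2 was 0.639 (counting interval 0.431 to 0.933), beside 0.611 for CX3CL1 and 0.817 for ICAM1, which passed with many more reads.

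VCAM1 fell the most. It had 17 reads under dex plus TNF against 502 under TNF with siIRF2BP2, and 21 against 264 with siNON, which left 4.48% and 7.03% of the TNF level. CCL2 stood at 67.3 FPKM under dex plus TNF against 250.3 under TNF with siIRF2BP2, and at 35.5 against 139.5 with siNON, log2 fold changes of -1.86 and -1.96 in the authors' deposited table. CCL5 stood at 0.302 FPKM against 1.33 with siIRF2BP2 and at 0.184 against 0.661 with siNON (-2.11 and -1.83 in that deposited table). Of the TNF level, dex left 26.9% of CCL2 with siIRF2BP2 and 25.4% with siNON, and 22.6% and 27.8% of CCL5. Both genes stood higher with siIRF2BP2 under TNF and under dex plus TNF. For CCL20, CX3CL1 and ICAM1 the values with the 2 small interfering RNAs lay farther apart. CCL20 stood at 19.8 FPKM under dex plus TNF against 49.2 under TNF with siIRF2BP2, and at 32.9 against 55.4 with siNON (-1.27 and -0.68 in the authors' deposited table). CX3CL1 stood at 0.608 FPKM against 0.995 with siIRF2BP2 and at 0.376 against 0.807 with siNON (-0.69 and -1.08 in that table). ICAM1 stood at 34.2 FPKM against 41.8 with siIRF2BP2, and at 20.4 against 40.9 with siNON, so that the authors' deposited log2 fold changes were -0.26 and -0.97.

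The share of the TNF gain that was left with dex, computed as the gain of dex plus TNF over vehicle divided by the gain of TNF over vehicle in pooled FPKM, puts the genes on 1 scale. ICAM1 kept 81.6% with siIRF2BP2 against 49.6% with siNON, and CX3CL1 kept 59.1% against 42.0%. CXCL10 kept 97.1% against 88.3%, and CCL2 kept 23.9% against 21.1%. The other 4 genes kept less with siIRF2BP2 than with siNON. These were CCL20 at 40.1% against 59.1%, CXCL11 at 63.8% against 84.4%, CCL5 at 18.6% against 21.0%, and VCAM1 at 3.87% against 5.81%. The 4 to 4 split shows no common direction over the genes, and with pooled columns none of these differences was tested.

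**Figure D3:**
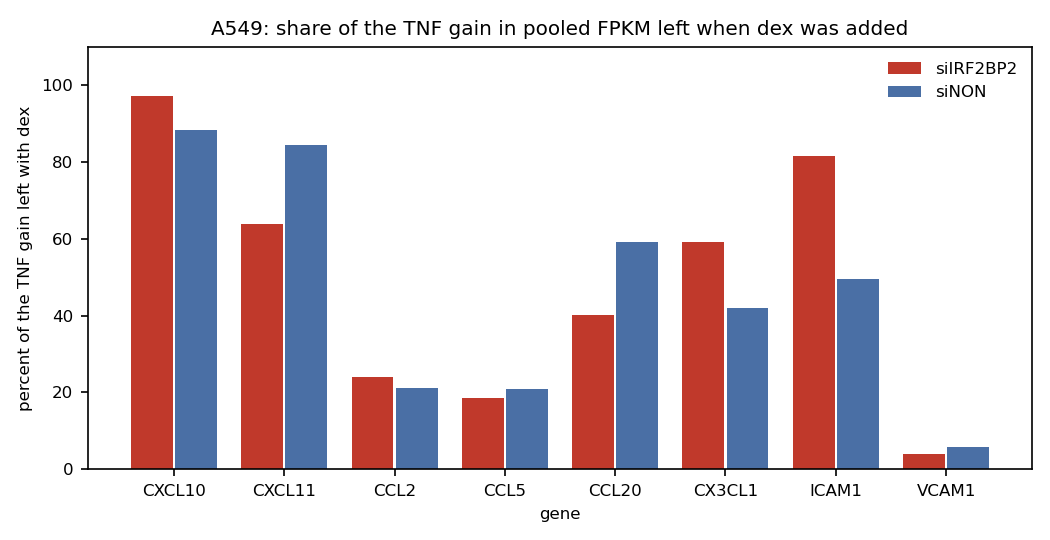
Percent of the TNF gain in pooled FPKM that was left when dex was added, for each gene in A549 cells, siIRF2BP2 (red) left of siNON (blue). ICAM1 has the widest gap, at 81.6% with siIRF2BP2 and 49.6% with siNON, and VCAM1 is lowest at 3.87% and 5.81%.

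With dex present, CCL2, CCL5, CCL20, CX3CL1 and ICAM1 were again higher when TNF was added. CXCL10, CXCL11 and VCAM1 were called too, but they reached 10 reads only in columns with TNF, so as before their calls add nothing to the count. Against dex alone all 8 were called higher with siIRF2BP2 (17% of all genes rose, 13.4% fell, 30.4% called) and with siNON (6.43% rose, 4.06% fell, 10.5% called), and so they were against vehicle (with siIRF2BP2 21.6% of all genes rose and 19.9% fell, 41.5% called; with siNON 11.7% rose and 9.62% fell, 21.4% called). The VCAM1 calls against dex rest on few reads, with 17 reads under dex plus TNF against 1 under dex with siIRF2BP2 and 21 against 1 with siNON. ICAM1 had 19309 reads against 73 with siIRF2BP2 and 15749 against 96 with siNON.

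Cells with siIRF2BP2 were compared with siNON cells in each treatment, to ask what lowered IRF2BP2 does to the genes. Under TNF, CXCL10, CXCL11, CCL2, CCL5 and VCAM1 were higher with siIRF2BP2 and no gene was called lower, so 5 of 8 were called where 19.7% of all genes were higher, 19.2% lower and 38.9% called. Under dex plus TNF, CXCL10, CXCL11, CCL2, CCL5, CX3CL1 and ICAM1 were higher and CCL20 was lower, 7 of 8 called where 17.9% of all genes were higher, 18.1% lower and 35.9% called. Under dex only CCL20 and CX3CL1 were called, both lower (15.3% of all genes higher, 16.5% lower, 31.8% called), and under vehicle only CCL20, also lower (16.2% higher, 18.1% lower, 34.4% called). The median log2 fold change of the 8 genes in the authors' deposited table was 0.65 under dex plus TNF, 0.73 under TNF, 0.15 under dex and -0.24 under vehicle, against medians from 0.000 to 0.015 over all genes tested. CXCL10, CXCL11 and VCAM1 had at most 4 reads in any column without TNF. The dex and vehicle medians rest in part on these genes and say little about the set. The 4 comparisons use separate columns, but each column also enters the treatment responses above.

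**Figure D4:**
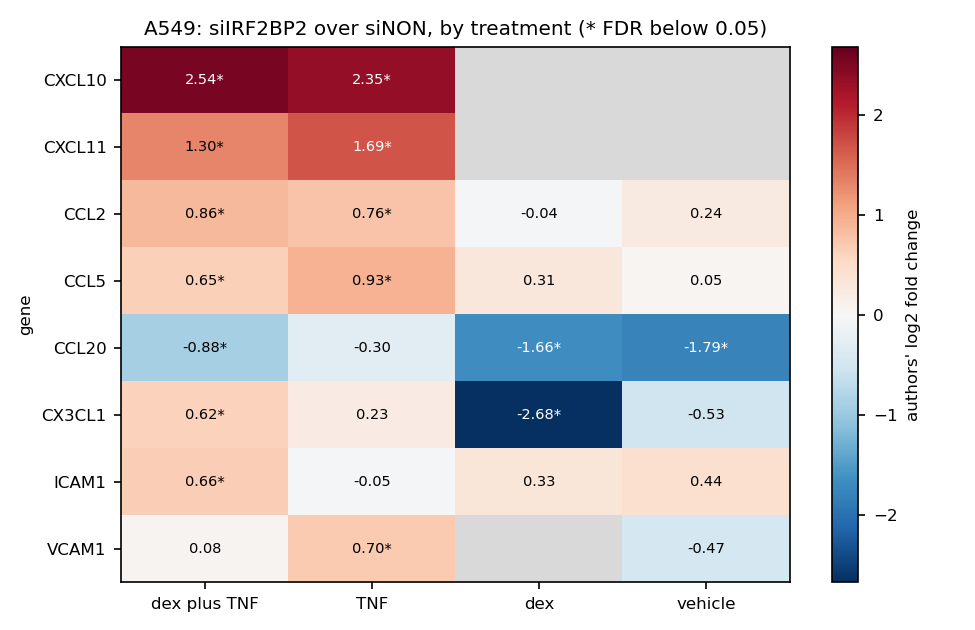
The authors' log2 fold changes, siIRF2BP2 over siNON, for the 8 genes in A549 cells under dex plus TNF, TNF, dex and vehicle. An asterisk marks an FDR below 0.05 and grey marks pairs in which both columns had at most 3 reads. CXCL10 is highest in both TNF columns (2.54 and 2.35), and CCL20 is negative in all 4, without an asterisk under TNF.

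CXCL10 had the largest increase with siIRF2BP2. It had 262 reads with siIRF2BP2 against 60 with siNON under dex plus TNF, and 357 against 60 under TNF, 5.97-fold (counting interval 4.49 to 8.04) and 5.44-fold (4.13 to 7.27). CXCL11 had 42 reads against 22 under dex plus TNF and 87 against 23 under TNF, 2.61-fold (1.52 to 4.59) and 3.46-fold (2.16 to 5.74). Without TNF neither gene had more than 1 read in any column, so no difference was detectable there at this depth.

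CCL2 and CCL5 were about 2 times as high with siIRF2BP2 under TNF, and CCL2 was close to that under dex plus TNF. The CCL2 level was 1.90-fold higher (counting interval 1.81 to 1.98) under dex plus TNF, 1.79-fold (1.75 to 1.84) under TNF, with a ratio of 1.05 (0.863 to 1.29) under dex and 1.29 (1.17 to 1.43) under vehicle. The last 2 were not called, at log2 fold changes of -0.04 (FDR 1) and 0.24 (FDR 0.187) in the authors' deposited table, so the pooled ratio and the authors' value differ in sign under dex. The CCL5 level was 1.64-fold higher (1.21 to 2.24) under dex plus TNF and 2.02-fold (1.74 to 2.35) under TNF. Under dex it had 12 reads with siIRF2BP2 against 14 with siNON, a ratio per tag of 1.35 (0.572 to 3.15). Under vehicle it had 22 against 29, a ratio per tag of 1.15 (0.63 to 2.07). In both treatments the siNON column held more tags. The dex plus TNF call of CCL5 had an FDR of 0.04 in the authors' deposited table.

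CCL20 was the only gene of the 8 called lower with siIRF2BP2 in more than 1 treatment. It had 2643 reads with siIRF2BP2 against 6001 with siNON under dex plus TNF, and 8676 against 8923 under TNF. It had 19 reads against 89 under dex and 22 against 105 under vehicle. Per tag this is 60.2%, 88.8%, 33.7% and 31.8% of the siNON level in that order, with authors' deposited log2 fold changes of -0.88, -0.30, -1.66 and -1.79. The TNF difference had an FDR of 0.0659 in the authors' deposited table and was not called.

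CX3CL1 passed the threshold under dex plus TNF and under dex, and ICAM1 under dex plus TNF. CX3CL1 was 1.62-fold higher (counting interval 1.35 to 1.93) with siIRF2BP2 under dex plus TNF, and under TNF its log2 fold change was 0.23 (FDR 0.277 in the authors' deposited table). Under dex it had 2 reads with siIRF2BP2 against 21 with siNON, a call that rests on very few reads. ICAM1 was 1.68-fold higher (1.64 to 1.71) with siIRF2BP2 under dex plus TNF, while under TNF its ratio was 1.02 (1.01 to 1.04), with a log2 fold change of -0.05 (FDR 0.823) in the authors' deposited table. VCAM1 was 1.74-fold higher (1.49 to 2.02) with siIRF2BP2 under TNF, and under dex plus TNF, with 17 reads against 21, its ratio was 1.11 (0.548 to 2.20). A step past the threshold in one treatment and not in another is not a test of the difference between treatments, which the pooled columns do not allow.

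The pooled columns and the authors' values differ in scale. Over genes with at least 100 reads the median log2 ratio of pooled FPKM was 0.10 for siIRF2BP2 over siNON under vehicle and under dex, 0.08 under TNF and 0.06 under dex plus TNF, while the median of the authors' log2 fold changes lay between 0.007 and 0.021. The pooled median was -0.11 for dex plus TNF over vehicle with siIRF2BP2. The calls given here rest on the authors' deposited values, which are centred near 0, while levels, read ratios and shares of the TNF gain come from the pooled columns.

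In HEK293-GR cells, which received no TNF, the 8 genes were low, with no group mean above 0.782 FPKM (CX3CL1, siNON with vehicle). CX3CL1 had 24 to 63 reads per library and CCL5 had 4 to 19. CXCL10, CXCL11 and VCAM1 had at most 3 reads in any of the 12 libraries, with 0 in 7 or 8 of them. ICAM1 had 1 to 9 reads and CCL2 had 1 to 10. CCL5 and CX3CL1 alone had at least 10 reads in at least 3 libraries, so 2 of 8 entered the test across all genes (limma on log2 of FPKM plus 0.1, 15594 genes). The other 6 were too low to test, and differences in them were not detectable at this depth except as described for CCL20.

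**Figure D5:**
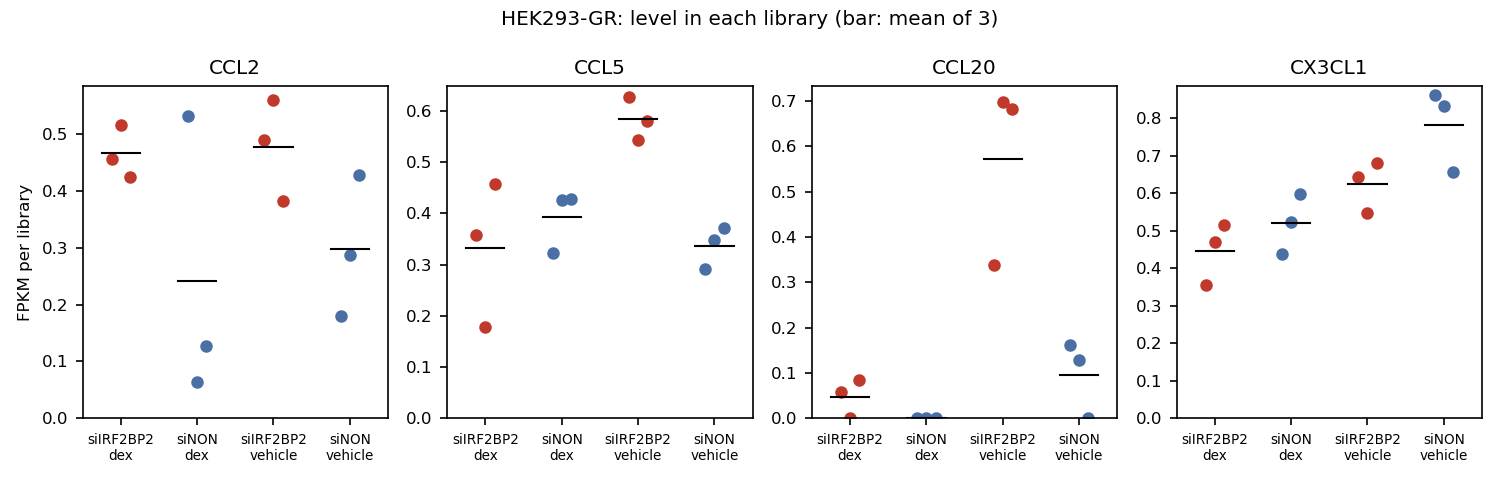
FPKM of CCL2, CCL5, CCL20 and CX3CL1 in each HEK293-GR library, for siIRF2BP2 with dex, siNON with dex, siIRF2BP2 with vehicle and siNON with vehicle; points are libraries and bars are means of 3. CCL20 lies between 0.339 and 0.698 FPKM with siIRF2BP2 under vehicle and at or below 0.161 in every other library.

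CCL5 had 0.626, 0.543 and 0.58 FPKM with siIRF2BP2 under vehicle, against 0.291, 0.348 and 0.372 with siNON under vehicle. Under dex it had 0.357, 0.179 and 0.458 FPKM with siIRF2BP2, against 0.323, 0.426 and 0.428 with siNON. The vehicle libraries did not overlap between the small interfering RNAs (two-sided exact permutation p = 0.1, the smallest that 3 against 3 allows). The dex libraries overlapped. The log2 fold change of siIRF2BP2 over siNON was 0.65 ± 0.22 under vehicle (± SE, limma adjusted p = 0.0543) and -0.24 ± 0.22 under dex (limma adjusted p = 0.388), so neither was called. CCL5 fell with dex in siIRF2BP2 cells by 0.72 ± 0.22 on the log2 scale (limma adjusted p = 0.0432; 10.5% of genes called, 5.86% higher and 4.59% lower), while the change with siNON was 0.17 ± 0.22 (limma adjusted p = 0.613). The siIRF2BP2 response minus the siNON response was -0.89 ± 0.31 and did not pass (limma adjusted p = 0.794, unadjusted p = 0.0105), where 0.0128% of genes passed; limma voom called neither tested member there. In the authors' deposited table the CCL5 dex response with siIRF2BP2 was -0.88 (FDR 0.779) and was not called. The limma call of that response rests on 4 to 19 reads per library. It was lost in 5 of 6 fits that left out 1 library (limma adjusted p from 0.0122 to 0.234). The exception was the fit without siIRF2BP2 dex replicate 3.

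CX3CL1 had 0.356, 0.47 and 0.515 FPKM with siIRF2BP2 under dex, against 0.642, 0.547 and 0.681 under vehicle. With siNON it had 0.438, 0.523 and 0.598 FPKM under dex, against 0.86, 0.831 and 0.655 under vehicle. Every dex library lay below every vehicle library of its small interfering RNA (two-sided exact permutation p = 0.1 in each, the smallest that 3 against 3 allows). Over the members, 6 of 32 comparisons had no overlap, and the share over all genes was not computed. It fell with dex in siNON cells by 0.51 ± 0.17 on the log2 scale (limma adjusted p = 0.0468; 20.7% of genes called, 10.9% higher and 9.82% lower), and the change with siIRF2BP2 was -0.41 ± 0.17 (limma adjusted p = 0.178). Between the small interfering RNAs the responses differed by 0.10 ± 0.24 (limma adjusted p = 0.925). The siNON call was lost in 5 of 6 such fits (limma adjusted p from 0.0309 to 0.167), all but the one without siNON vehicle replicate 3. In the authors' deposited table the CX3CL1 dex response with siNON was -0.59 (FDR 0.234) and was not called. The knockdown log2 fold changes of CX3CL1 were -0.18 ± 0.17 under dex (limma adjusted p = 0.412) and -0.28 ± 0.17 under vehicle (limma adjusted p = 0.277). No member was thus called for the knockdown, where limma called 39.7% of genes under dex (22.4% higher, 17.3% lower) and 15.5% under vehicle (8% higher, 7.48% lower). At an unadjusted p under 0.05 limma would call 0 of the 2 under dex and 1 under vehicle. Of all 15594 genes, 7634 under dex and 4860 under vehicle had such a p. Limma voom on the reads called 0 of the 2 in both.

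CCL20 stood out among the 6 genes below the filter. It had 7, 14 and 12 reads with siIRF2BP2 under vehicle, against 3, 2 and 0 with siNON under vehicle. Under dex it had 1, 0 and 2 reads with siIRF2BP2 against 0 in all 3 siNON libraries. The siIRF2BP2 vehicle libraries lay above all others, at 0.573 ± 0.203 FPKM against 0.0963 ± 0.085 with siNON (SD, n = 3 each; two-sided exact permutation p = 0.1, the smallest that 3 against 3 allows). In the authors' deposited table the knockdown log2 fold change under vehicle was 2.68 (FDR 0.0644), and the dex response with siIRF2BP2 was -3.51 (FDR 0.0105). A limma fit with no filter gave 1.84 ± 0.36 and -2.19 ± 0.36 for these 2 comparisons. That fit called 1720 of 21717 genes for the knockdown under vehicle. CCL20 reached 10 reads only in libraries of siIRF2BP2 with vehicle and was singled out for those reads. The values from these same libraries are therefore a description and add no separate support. The A549 level of CCL20 under vehicle moved the other way, at 0.158 FPKM with siIRF2BP2 against 0.496 with siNON. The 2 tables were normalized separately, and the difference between the lines was not tested.

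CCL20 was also the gene with an IRF2BP2 peak nearby. In the dex list of 1400 peaks, 1 lay at chr2:228682902-228683233 (hg19), which is 4344 bases from the annotated start and 622 bases past the annotated end of the gene (chromosome 2, 228678558 to 228682280, plus strand). The nearest peak of the vehicle list of 1108 peaks was 3135185 bases away. No other member had a peak within 100 kb in either list, and their nearest peaks lay 365267 bases (VCAM1, vehicle) or farther away. Within 50 kb of the start, 5.22% of all genes had a peak in the dex list and 4.34% in the vehicle list, against 1 and 0 of the 8, so the share was near the background. The peaks were mapped in HEK293-GR cells without TNF, and the lists do not say how replicates and input were combined.

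Other leukocyte chemokines and adhesion molecules were read from lists chosen with earlier results of these data known. Their counts stand beside the shares of all genes: with TNF 18.8% were higher and 18.8% lower with siIRF2BP2, and 10.2% higher and 9.43% lower with siNON. For siIRF2BP2 against siNON, 31.8% to 38.9% were called in the 4 treatments, split nearly evenly between higher and lower. Of 23 other leukocyte-attracting chemokines 8 had reads in A549, and CCL4, CCL17 and CCL22 rose with TNF with both small interfering RNAs and none fell. With siIRF2BP2, CCL4, which attracts monocytes and T cells, was higher under dex plus TNF (log2 fold change 1.41) and under TNF (1.13) in the authors' deposited table. CCL22, a ligand of CCR4, was lower under TNF (-2.17) and so was CCL24 (-3.17), with 2 of the 8 higher and 3 lower under dex plus TNF, 1 higher and 3 lower under TNF, none higher and 2 lower under dex, and 1 higher and 2 lower under vehicle. Of 18 other adhesion molecules 13 had reads, and 8 rose with TNF with siIRF2BP2 and 6 with siNON, none falling. E-selectin (SELE), which lets leukocytes roll on endothelium, fell with dex added to TNF by 4.27 on the log2 scale with siIRF2BP2 and by 3.95 with siNON in the authors' deposited table. For siIRF2BP2 against siNON, 2 of the 13 were higher and 5 lower under dex plus TNF, 2 higher and 6 lower under TNF, and none higher and 5 lower under dex and under vehicle. CD47, a surface ligand of a myeloid inhibitory receptor, was higher under dex plus TNF (0.55) and TNF (0.52) in the authors' deposited table. ALCAM was also called higher in both. With siIRF2BP2 the hyaluronan receptor CD44 was lower under dex plus TNF (-0.88) and TNF (-0.89), and so was the junctional molecule JAM3 (-1.40 and -1.64) in the authors' deposited table.

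The receptors for these ligands were read from a list of the same kind, and the shares of all genes given above apply to its counts too. Of 16 receptor and integrin genes 8 had reads in A549. With TNF, 1 rose and 2 fell with siIRF2BP2, and 2 rose and 1 fell with siNON. For siIRF2BP2 against siNON, none of the 8 was higher and 2 were lower under dex plus TNF, 1 was higher and 2 lower under TNF and under dex, and 2 were higher and 2 lower under vehicle. The integrin subunits ITGB1 and ITGB2 were lower with siIRF2BP2 under dex plus TNF (-0.73 and -1.51) and TNF (-0.77 and -1.44) in the authors' deposited table, and ITGAM rose with TNF by 1.62 with siIRF2BP2 and 1.58 with siNON. Of 5 proteases that act on chemokines or shed CX3CL1 and VCAM1, 4 had reads, and with TNF 2 rose and 1 fell with siIRF2BP2 while 2 rose with siNON. The sheddase gene ADAM17 rose with TNF by 0.85 with each small interfering RNA in the authors' deposited table, and CTSS, a lysosomal protease, rose by 1.70 with siIRF2BP2 and 1.22 with siNON. For siIRF2BP2 against siNON, 1 of the 4 (CTSS) was higher and none lower under dex plus TNF. Under TNF, CTSS was higher, and DPP4 and ADAM17 were lower, ADAM17 by a log2 fold change of -0.19 in the authors' deposited table. Under dex 1 was higher and 1 lower, and under vehicle none was higher and 1 lower.

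Upstream pathway genes moved in both directions with siIRF2BP2. Of 25 genes of the TNF receptor and NF-kB pathway, 20 rose and 1 (TNFRSF1A) fell with TNF with siIRF2BP2. With siNON 16 rose and the same 1 fell. Of all genes, 18.8% rose and 18.8% fell with siIRF2BP2, and 10.2% rose and 9.43% fell with siNON. TNFAIP3, a feedback inhibitor of NF-kB, rose by 5.16 with siIRF2BP2 and 3.96 with siNON in the authors' deposited table, and NFKB2, a precursor subunit, rose by 3.53 and 2.71. For siIRF2BP2 against siNON under dex plus TNF, 9 pathway genes were higher and 4 lower, beside 17.9% and 18.1% of all genes. Under TNF 12 were higher and 6 lower, beside 19.7% and 19.2%. Under dex 5 were higher and 9 lower, beside 15.3% and 16.5%. Under vehicle 4 were higher and 9 lower, beside 16.2% and 18.1%. The difference in counts between treatments was not tested. Under TNF, TRADD stood at 0.70 and REL at -1.32 in the authors' deposited table.

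The genes whose A549 pattern was most like each member were listed from 2455 genes with at least 100 reads in a column and a range of at least 1 on the log2 scale, over the same 8 pooled columns. All such pairs share the columns and the TNF step, so the correlations are descriptions. NOD2, a bacterial sensor, was the nearest to CXCL10 (Pearson's r = 0.998), OLR1 to CCL5 (0.996), SDCBP to CCL2 (0.993), the pentraxin gene PTX3 to CCL20 (0.994) and DRAM1 to CX3CL1 (0.997). TNFAIP2 was the nearest to ICAM1 (0.998) and the interferon-stimulated OAS2 to VCAM1 (0.991). CXCL11 stayed below 100 reads in every column and was left out. The next places were held by SLC5A5 and CREB3L3 for CXCL10, SLC25A37 and CLDN1 for CCL2, and C8orf4 and GBP4 for CCL5. They were TRIM31 and TNFAIP2 for CCL20, IL6 and ADORA2A for CX3CL1, CA8 and SOD2 for ICAM1, and OASL and CMPK2 for VCAM1. Among the members themselves r ran from 0.659 (CXCL10 with VCAM1) to 0.981 (CX3CL1 with ICAM1) over 21 pairs.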

How the data were processed

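RNA was measured by poly(A) sequencing in A549 and HEK293-GR cells and IRF2BP2 binding by ChIP sequencing. Per the submitters' processing notes, tools included FastQC, Trimmomatic 0.33, HOMER 4.10.3, Bowtie 0.12.9, Bowtie2, TopHat2, bedtools and edgeR, and the build was hg19; their roles are not given in the sources used here. Per the file headers the authors deposited FPKM. In the HEK293-GR table these are per library and exon length, and in the A549 table per pooled group and a length equal to the genomic span in 98.9% of rows. The authors' deposited log2 fold changes have the later named group on top, checked against the FPKM, and the test behind the deposited p-value and FDR columns is not given in the sources used here. The deposited peak score is 1 for every peak, so positions were used.

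Whole reads were recovered from FPKM and length in 100% of the rows checked (within 0.02 reads beyond rounding). For long spans such as VCAM1 in A549, rounding leaves less than 1 read of doubt. For HEK293-GR cells, genes reaching 10 reads in 3 libraries were tested with limma 3.58.1 (trend, R 4.3.3) on log2(FPKM + 0.1), 4 groups in 1 fit, with Benjamini-Hochberg adjustment at 0.05; fold changes on that scale understate low genes. The script was tested on simulated data. For A549, the transcript with the highest mean FPKM times length stood for a gene. The 0-count floor was 3 reads per column. Named genes were the 8 members, IRF2BP2, up to 4 called genes of 5 lists by smallest p or FDR (a further list is not reported here), and the 3 nearest patterns per member. Alternatives were other pseudocounts, no filter, median-of-ratios scaling, limma voom, fits of only the groups compared, a replicate block, leaving out each library, other thresholds, the longest transcript and other peak windows. The members and lists were chosen with earlier results of these data known.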

Additional observations from a re-analysis of the deposited data

How the results depend on the processing

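In HEK293-GR cells the number of members called (of those tested) depended on the settings. For the knockdown under vehicle it was 0, and 1 with a pseudocount of 1 FPKM (CCL5) or with no filter (CCL20). For the dex response with siIRF2BP2 it was 1 (CCL5), and 0 with a pseudocount of 0.01 FPKM, with limma voom on recovered reads, or with only the 2 groups compared; with no filter the 1 call was CCL20. For the dex response with siNON it was 1 (CX3CL1), and 0 with a pseudocount of 0.01 FPKM, with no filter, or with only the 2 groups compared. CCL20 was singled out for reads in these same libraries, so its calls with no filter add no support. Leaving out 1 library gave 0 to 1 members called in each of the 3 comparisons above. The knockdown call appeared without siNON vehicle replicate 3. The knockdown under dex and the difference of dex responses stayed at 0 in all settings run. With a replicate block, the dex response of CX3CL1 with siNON was no longer called (0 members, limma adjusted p = 0.0708) and that of CCL5 with siIRF2BP2 was (limma adjusted p = 0.0473). Same-numbered libraries did not deviate together (correlations from -0.377 to 0.261, 4 of 18 pairs over 0.1; 11 of 36 comparisons were highest with the own number), so the numbers were not taken as pairs. The CCL5 knockdown log2 fold change under dex, -0.24, lay between -0.4559 and 0.0441 without 1 library, reversed without siIRF2BP2 dex replicate 2, and was called in none of these fits. Over all genes, the calls for the knockdown under vehicle were 2414, against 2423 with a pseudocount of 1 FPKM and 1720 of 21717 with no filter. They were 567 with only the 2 groups compared and 1161 to 4815 without 1 library. For the dex response with siIRF2BP2 the calls were 1630, against 1250 to 1483 without 1 library. Totals of the dex responses with each small interfering RNA at the other settings are not given here. Those for the difference of dex responses were 2, against 22 with a pseudocount of 1 FPKM, 0 with a replicate block and 0 to 7 without 1 library, and those for the dex response with siNON were 3235, against 1976 to 3909 without 1 library. The causes were not tested.

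In A549, a pooled log2 ratio of at least 1 in place of the FDR called 2 members for the knockdown under dex plus TNF (7 by FDR) and 2 under TNF (5 by FDR), and so did FDR with a log2 fold change of at least 1. For the knockdown under dex it called 1, as did an FDR under 0.01, against 2. For dex against vehicle it called 1 with siIRF2BP2 (3 by FDR) and 1 with siNON (2 by FDR; also 1 by FDR with a log2 fold change of at least 1). Shares of all genes at these other thresholds were not computed, so these counts have no background beside them. The other A549 counts, the residual gain under median-of-ratios scaling, the longest transcript and peak windows of 10 and 100 kb stayed within 1.5 times. Depth limits CXCL10, CXCL11 and VCAM1 without TNF and 6 of 8 members in HEK293-GR cells.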

Other observations

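The pathway lists read above in A549 were also counted in HEK293-GR cells, which received no TNF. Of 25 tested genes of the TNF receptor and NF-kB pathway, 5 rose and none fell with dex with siIRF2BP2, and 6 rose and none fell with siNON (limma, adjusted p under 0.05). Over all genes limma called 10.5% with siIRF2BP2 (5.86% higher, 4.59% lower) and 20.7% with siNON (10.9% higher, 9.82% lower). NFKBIA, the inhibitor that holds NF-kB in the cytoplasm, TNFAIP3 and BIRC3 were among them in both. For siIRF2BP2 against siNON, 9 of the 25 were higher and 5 lower under dex, and 4 were higher and none lower under vehicle. Over all genes 39.7% were called under dex (22.4% higher, 17.3% lower) and 15.5% under vehicle (8% higher, 7.48% lower), and the share of pathway genes called under vehicle was near that background. Of 12 tested adhesion molecules other than ICAM1 and VCAM1, 2 were higher and 6 lower with siIRF2BP2 under dex, and none were higher and 5 lower under vehicle. JAM3, ICAM3, ICAM4, ICAM5 and CD44 were lower in both comparisons, which share no libraries.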
